A study of Mus musculus with 7 samples.

Results

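The liver enzymes that break down amino acids were examined here as a set of 37 genes, fixed by gene symbol and sorted by the amino acid they act on. A gene was included where GEO's platform annotation gave a probe exactly its symbol, and 33 of the 37 matched, through 35 probes. They are 12 genes for branched-chain amino acids and propionyl-CoA, 5 for phenylalanine and tyrosine, 6 for tryptophan, 5 for glutamate, aspartate and alanine, and 5 for histidine, proline and lysine. They were read among 22218 features of the array, 16468 of them named genes. Bcat2, Gls2 and Sds were not matched, and Mut was matched only under its present symbol, Mmut, which is given separately.

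Liver RNA came from 3 mice carrying a Zfp90 transgene (1 female, 2 males), called Zfp90 tg, and from 4 wild-type mice (WT; 1 female, 3 males), described as littermate controls. Each animal was set against 1 pool of liver RNA from 4 WT mice of both sexes on a 2-colour array, so every value is a log2 ratio of an animal to that pool. It gives no level of one gene against another. Strain, age, diet, time of collection, and the promoter and structure of the transgene are not given in the sources used here. Where single values are listed, they run female 1, male 1 and male 2 for Zfp90 tg, and female 3, male 2, male 3 and male 4 for WT.

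As background, the liver is the main site where most amino acids are degraded. Aminotransferases such as those encoded by Got1, Got2, Gpt, Gpt2 and Tat move the amino group onto a keto acid, and glutamate dehydrogenase releases it as ammonia for urea synthesis. The carbon skeletons enter the citric acid cycle or acetyl-CoA. Tryptophan can also be turned into NAD through the kynurenine pathway. Branched-chain amino acids differ from the others in that their first transamination takes place largely outside the liver, while the liver is active in oxidising the resulting keto acids. Several enzymes of the first steps, among them those of Tat, Tdo2, Hal and Gpt, are known to be induced by glucocorticoids, glucagon or a high protein intake.

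Zfp90 read 0.34, 0.58 and 0.45 in Zfp90 tg livers, against 0.37, -0.15, -0.29 and -0.11 in WT livers. In the model with sex used below, Zfp90 differed by 0.48 ± 0.15 SE (1.40-fold, adjusted p = 0.678 in limma) and was itself not called. The transgenic males lay above the WT males, but the array labelled WT female lay within the transgenic range. That array was kept as labelled. Leaving it out gives the same differences as the males alone, which are given with the comparison of the sexes. The direction of the ratios was read from the Y-linked Kdm5d, at -2.54 and -3.22 on the 2 female arrays and between 0.14 and 0.66 on the 5 male arrays. Correlations between arrays over all probes ran from -0.497 to 0.526, with 3 pairs under -0.3, and with all signs turned every difference below would turn its sign and keep its p. Hepatocyte markers (10 measured, 6 with a positive difference) had mean ratios from -0.14 to 0.04 in Zfp90 tg and from -0.06 to 0.05 in WT livers. Stellate cell markers (4 measured, 2 with a positive difference) ran from 0.01 to 0.28 in Zfp90 tg and from -0.13 to 0.23 in WT livers. In the genotype test below, 3 markers in each of these lists had an unadjusted p under 0.05 (6.91% of features). The Kupffer cell and macrophage list also held 3. The lists for sinusoidal endothelium, bile duct, lymphocytes, red blood cells, adipocytes and exocrine pancreas held 0. Median differences of those lists ran from -0.19 (adipocyte, 3 measured) to 0.33 (red blood cell, 3 measured). Kupffer cell and macrophage markers (8 measured, 7 with a positive difference) ran from 0.30 to 0.60 in Zfp90 tg and from -0.63 to 0.76 in WT livers, where the WT female alone was above 0. Their part in the results below was not tested, and in whole liver fewer cells of a type cannot be told apart from less RNA per cell.

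Between genotypes no amino acid catabolism gene passed the test, and the member with the smallest p was Gpt2, the mitochondrial alanine aminotransferase. Differences are Zfp90 tg minus WT from limma in a model with sex, with Benjamini-Hochberg adjustment over all features, and a call needed an adjusted p under 0.05. Of the 33 members 0 were called, as were 0 of all features (0%). At an unadjusted p under 0.05 there were 5 members, against 6.91% of all features. Of these 5, Gpt2, Bckdhb, Pcca and Afmid were on the higher side (3.82% of features) and Aldh6a1 on the lower side (3.1%). The 3 transgenic animals lay above all 4 WT animals in 2 members, Gpt2 and Pcca (3.17% of features), and below all of them in 0 members (2.84%). The median difference of the members was 0.02, with 19 of 33 positive, beside -0.005 and 48.2% positive over all features. Single animals turned or moved that median: it was -0.04 with 15 positive without WT male 3, and 0.09 with 22 positive without Zfp90 tg male 1. Standard errors of the members ran from 0.08 to 0.38. Their median was 0.13, as was the median size of the differences regardless of sign.

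**Figure D1:**
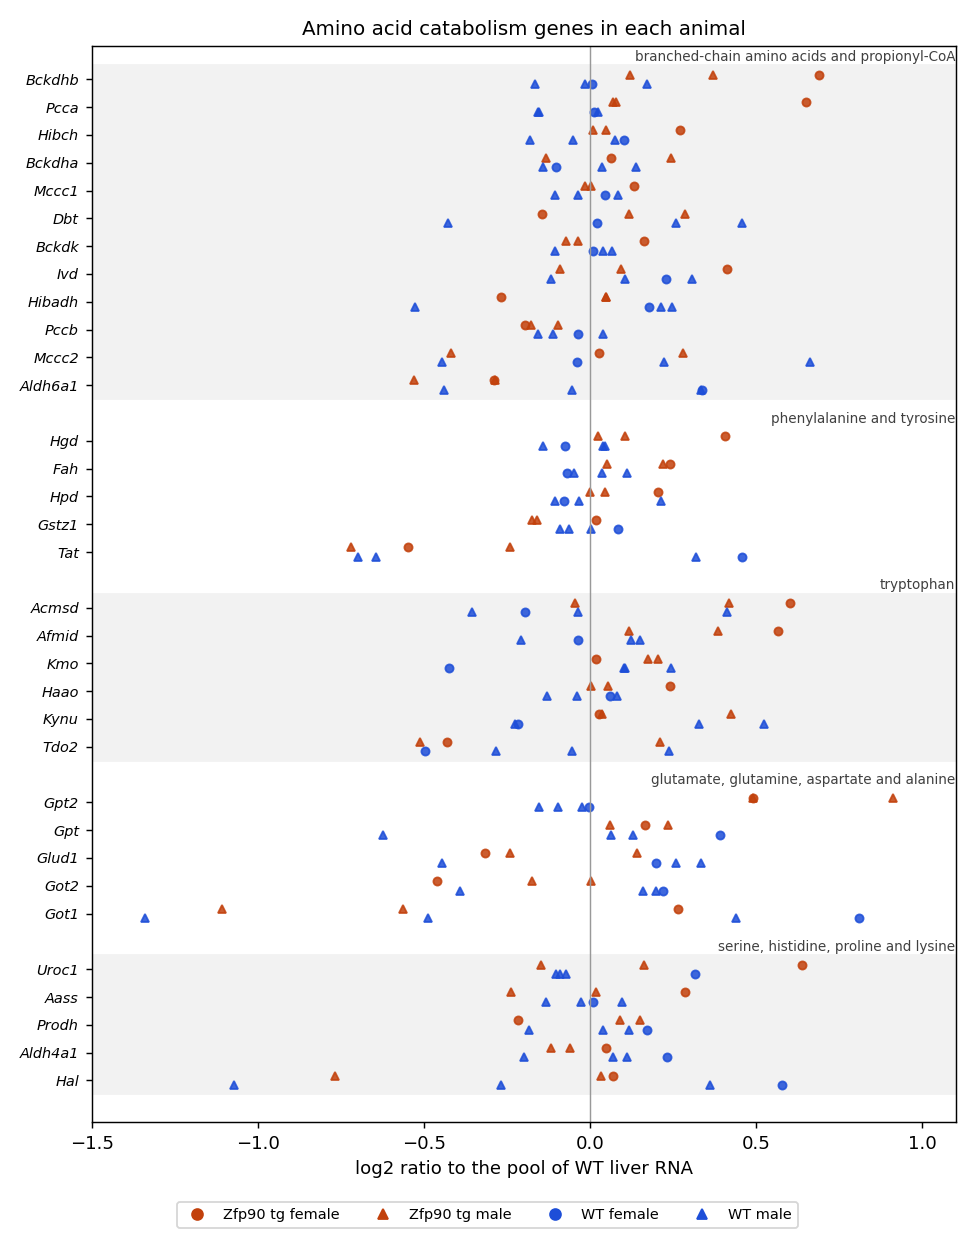
Log2 ratio to the WT liver pool (x axis) of the 33 measured members, 1 point per animal, with Zfp90 tg (red) drawn above WT (blue) in each row and circles for females, triangles for males. Gpt2 is the member whose genotypes lie furthest apart, with Zfp90 tg at 0.49 to 0.91 and WT at -0.15 to -0.002, while Got1 and Hal spread widely in both genotypes.

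Among the genes of glutamate, aspartate and alanine, Gpt2 stood on the higher side, and the other 4 had differences between -0.42 and 0.14. Gpt2 read 0.49, 0.49 and 0.91 in Zfp90 tg livers, against -0.002, -0.10, -0.03 and -0.15 in WT livers. All 3 transgenic animals lay above all 4 WT animals, and the WT values kept within 0.15 of each other, the narrowest WT range among the 33 members. Means were 0.63 ± 0.24 (SD, n = 3) in Zfp90 tg and -0.07 ± 0.07 (SD, n = 4) in WT livers. The difference was 0.70 ± 0.13 SE, or 1.63-fold with a 95% interval from 1.32 to 2.01. Its unadjusted p of 0.000748 ranked 35 among all features, and its adjusted p was 0.475, so it was not called. Leaving out each animal in turn gave differences from 0.55 (without Zfp90 tg male 2) to 0.80 (without Zfp90 tg male 1), and its adjusted p ran from 0.181 to 0.9997 over the 15 alternative fits.

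The cytosolic counterpart of Gpt2, the alanine aminotransferase gene Gpt, read 0.17, 0.06 and 0.24 in Zfp90 tg livers, against 0.39, 0.13, -0.62 and 0.06 in WT livers. The genotypes overlapped and the difference was 0.14 ± 0.21 SE. Got2, the mitochondrial aspartate aminotransferase, read -0.46, -0.17 and 0.0023 in Zfp90 tg livers and 0.22, 0.20, -0.39 and 0.16 in WT livers. WT male 3 was the only WT animal within the transgenic range. Got1, the cytosolic aspartate aminotransferase, read 0.27, -1.11 and -0.56 in Zfp90 tg livers and 0.81, -0.49, -1.34 and 0.44 in WT livers, the widest WT range of all members (2.15). Differences were -0.25 ± 0.19 SE for Got2 and -0.42 ± 0.38 SE for Got1. Glud1, glutamate dehydrogenase, differed by -0.22 ± 0.21 SE. The median of the class was -0.22, with 2 of 5 differences positive.

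In the branched-chain pathway, Bckdhb and Pcca were on the higher side and Aldh6a1 on the lower side at an unadjusted p under 0.05, and none of the 12 members was called. Bckdhb, the E1 beta subunit of the branched-chain keto acid dehydrogenase, read 0.69, 0.37 and 0.12 in Zfp90 tg livers, against 0.01, -0.02, 0.17 and -0.16 in WT livers. Zfp90 tg male 2 lay below WT male 3, and the difference was 0.38 ± 0.14 SE (1.297-fold; limma, adjusted p = 0.718). Its partner subunit Bckdha differed by 0.08 ± 0.12 SE and the E2 subunit gene Dbt by 0.02 ± 0.21 SE. Bckdk, the kinase that switches the complex off, differed by 0.01 ± 0.09 SE, with an interval from 0.863-fold to 1.17-fold.

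Pcca, the alpha subunit of propionyl-CoA carboxylase, read 0.65, 0.07 and 0.08 in Zfp90 tg livers, against 0.01, -0.15, 0.02 and -0.16 in WT livers. The genotypes did not overlap, but the transgenic males lay only just above WT male 3, and the transgenic female was far above the other animals. The difference was 0.31 ± 0.12 SE (1.24-fold; limma, adjusted p = 0.72), and 0.17 in the males. The beta subunit gene Pccb differed by -0.09 ± 0.09 SE. Mcee, the methylmalonyl-CoA epimerase that acts next, is no member and was added after its values were seen. It read 0.25, 0.48 and 0.26 in Zfp90 tg livers, against -0.12, 0.09, 0.17 and -0.11 in WT livers, without overlap, and differed by 0.33 ± 0.11 SE (limma, adjusted p = 0.702). Of the 13 other branched-chain genes measured, Mcee among them, 2 lay above all WT animals (3.17% of features) and 1 below (2.84%). Mmut (listed as Mut), the methylmalonyl-CoA mutase after Mcee, read 0.28, -0.07 and -0.37 in Zfp90 tg livers and 0.01, -0.43, 0.61 and -0.54 in WT livers, a difference of 0.01 ± 0.28 SE.

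Aldh6a1, the methylmalonate semialdehyde dehydrogenase of valine breakdown, was the member on the lower side. It read -0.29, -0.53 and -0.29 in Zfp90 tg livers, against 0.34, -0.05, -0.44 and 0.33 in WT livers. WT male 3 again lay within the transgenic range and the other WT animals above it. Its difference was -0.43 ± 0.19 SE (0.74-fold, 95% interval 0.549 to 0.999; limma, adjusted p = 0.722). Of the other valine enzymes, Hibch (the hydrolase) differed by 0.11 ± 0.10 SE and Hibadh (the dehydrogenase) by -0.08 ± 0.21 SE. The leucine enzymes Ivd, Mccc1 and Mccc2, a dehydrogenase and the subunits of methylcrotonyl-CoA carboxylase, lay between -0.13 and 0.04. The class had 7 of 12 differences positive and a median of 0.02.

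Of the 5 phenylalanine and tyrosine enzymes 3 had positive differences, none with an unadjusted p under 0.05. Tat, tyrosine aminotransferase, the first step, read -0.55, -0.72 and -0.24 in Zfp90 tg livers, against 0.46, -0.65, -0.70 and 0.32 in WT livers. WT males 2 and 3 lay within the transgenic range and the other WT animals above it, and the difference was -0.39 ± 0.30 SE. Hgd, homogentisate dioxygenase, read 0.41, 0.11 and 0.02 in Zfp90 tg and -0.08, 0.04, -0.14 and 0.05 in WT livers, a difference of 0.20 ± 0.11 SE. Fah, which cleaves fumarylacetoacetate in the last step, read 0.24, 0.22 and 0.05 in Zfp90 tg and -0.07, 0.04, 0.11 and -0.05 in WT livers (0.16 ± 0.10 SE). For both genes the genotypes overlapped only through Zfp90 tg male 2. Hpd, the dioxygenase of the second step, and Gstz1, the maleylacetoacetate isomerase, differed by 0.08 ± 0.11 SE and -0.10 ± 0.08 SE. The class median was 0.08.

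Of the 6 tryptophan members 5 had positive differences, with a median of 0.13. The 8 other tryptophan genes measured, which are no members, had 3 positive differences and a median of -0.10. Afmid, the kynurenine formamidase, read 0.57, 0.38 and 0.12 in Zfp90 tg livers, against -0.04, 0.12, 0.15 and -0.21 in WT livers. Zfp90 tg male 2 lay within the WT range and the other transgenic animals above it, a difference of 0.34 ± 0.14 SE (1.26-fold; limma, adjusted p = 0.721). Acmsd, which diverts the pathway away from NAD, read 0.60, 0.42 and -0.05 in Zfp90 tg and -0.19, -0.04, 0.41 and -0.35 in WT livers (0.36 ± 0.22 SE). Here WT male 3 lay just below Zfp90 tg male 1, and WT males 2 and 3 lay above Zfp90 tg male 2.

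Kmo, kynurenine monooxygenase, read 0.02, 0.21 and 0.18 in Zfp90 tg livers, against -0.43, 0.24, 0.10 and 0.10 in WT livers, a difference of 0.16 ± 0.11 SE. The WT female was far below the other animals. Kynu (kynureninase) and Haao (3-hydroxyanthranilate dioxygenase) differed by 0.09 ± 0.19 SE and 0.10 ± 0.09 SE. Tdo2, the dioxygenase of the first step, differed by -0.06 ± 0.20 SE.

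In the class of histidine, proline and lysine, 2 of 5 differences were positive and the median was -0.02. Uroc1, urocanase, read 0.64, -0.15 and 0.16 in Zfp90 tg livers, against 0.31, -0.09, -0.10 and -0.07 in WT livers (0.16 ± 0.11 SE). Its highest values were the females of both genotypes. Hal, histidine ammonia-lyase, the step before it, read 0.07, -0.77 and 0.03 in Zfp90 tg and 0.58, -0.27, -1.07 and 0.36 in WT livers (-0.18 ± 0.35 SE), with the transgenic values inside the WT range. Aldh4a1, the pyrroline-5-carboxylate dehydrogenase of proline breakdown, read 0.05, -0.06 and -0.12 in Zfp90 tg and 0.23, 0.07, -0.20 and 0.11 in WT livers (-0.11 ± 0.11 SE). Prodh (proline dehydrogenase) and Aass (the first enzyme of lysine breakdown) differed by -0.02 ± 0.13 SE and 0.02 ± 0.12 SE.

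**Figure D2:**
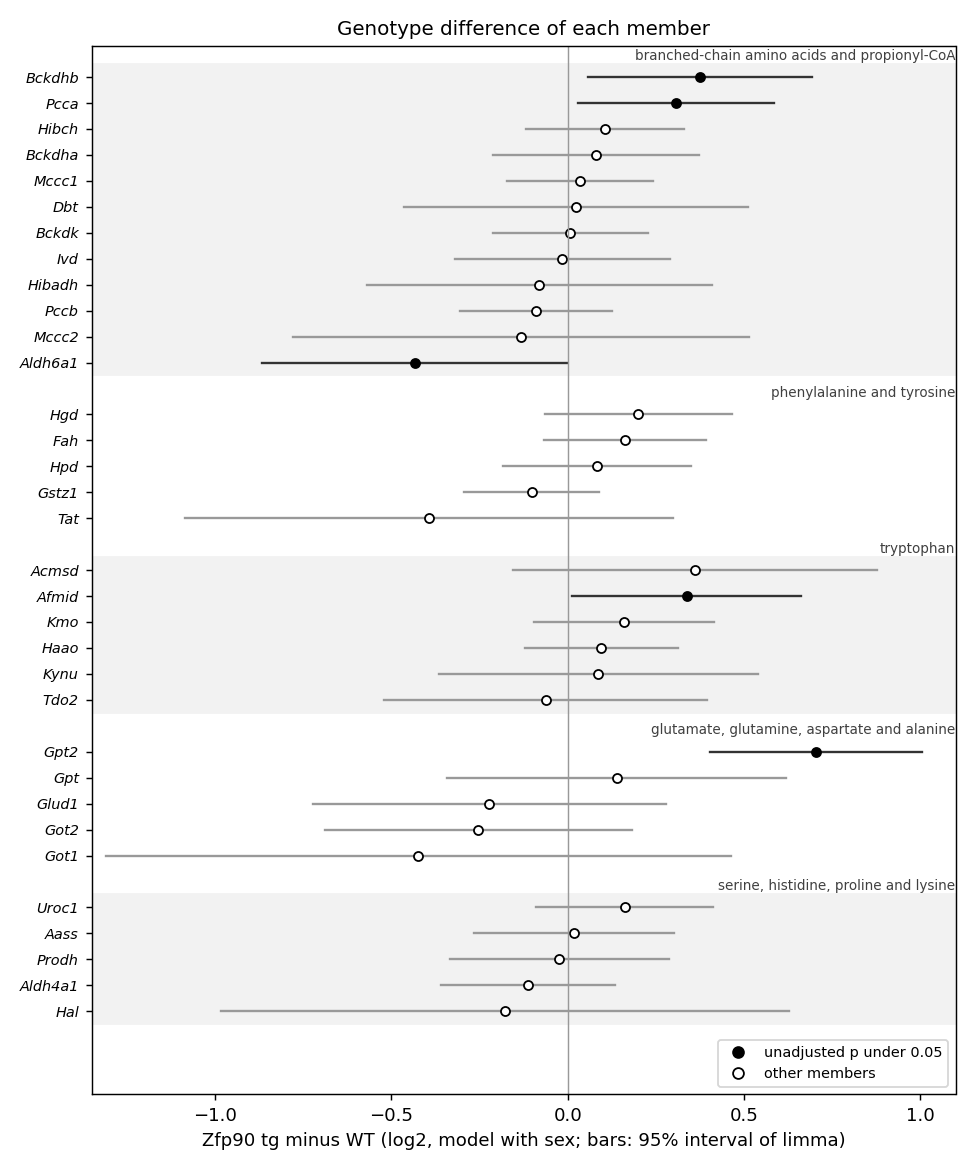
Zfp90 tg minus WT (log2, x axis) of each measured member from limma in the model with sex, with 95% intervals as bars and filled points at an unadjusted p under 0.05. Gpt2, at 0.70, has the interval furthest from 0, and the intervals of all members but 5 include 0.

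Set side by side, the classes ranked from tryptophan (median difference 0.13) through phenylalanine and tyrosine (0.08), branched-chain (0.02) and histidine, proline and lysine (-0.02) to glutamate, aspartate and alanine (-0.22). The tryptophan median stayed positive, and that of glutamate, aspartate and alanine negative, in each of 15 alternative fits. Robust eBayes, medians over probes and named genes alone could not change these medians, whose sizes depended on single animals. Without either female the tryptophan median was 0.05 and that of glutamate, aspartate and alanine -0.07, and without WT male 3 the last was -0.40. The other classes turned sign: phenylalanine and tyrosine to -0.00155 without either female, branched-chain to -0.03 without WT male 3, and histidine, proline and lysine to 0.033 without WT male 4. Per animal, the tryptophan median was 0.13, 0.13 and 0.15 in Zfp90 tg livers, against -0.21, 0.04, 0.09 and -0.01 in WT livers. In these medians the transgenic animals lay close together and above the WT animals. Single members did not separate so: all 3 lay above all 4 WT animals in 0 of 6 (3.17% of all features). In the Zfp90 tg female the members ran from -0.43 (Tdo2) to 0.60 (Acmsd). For glutamate, aspartate and alanine the median was 0.17, -0.17 and 0.14 in Zfp90 tg, against 0.22, 0.13, -0.44 and 0.16 in WT livers, where 1 animal of each genotype lay apart below. By compartment, the 14 cytosolic enzymes had a median difference of 0.09 with 9 positive, and the 19 mitochondrial ones 0.01 with 10 positive. The cytosolic median was 0.04 without either female, and the mitochondrial one -0.08 without WT male 3. These medians are descriptions without a test, and no difference between classes was tested.

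**Figure D3:**
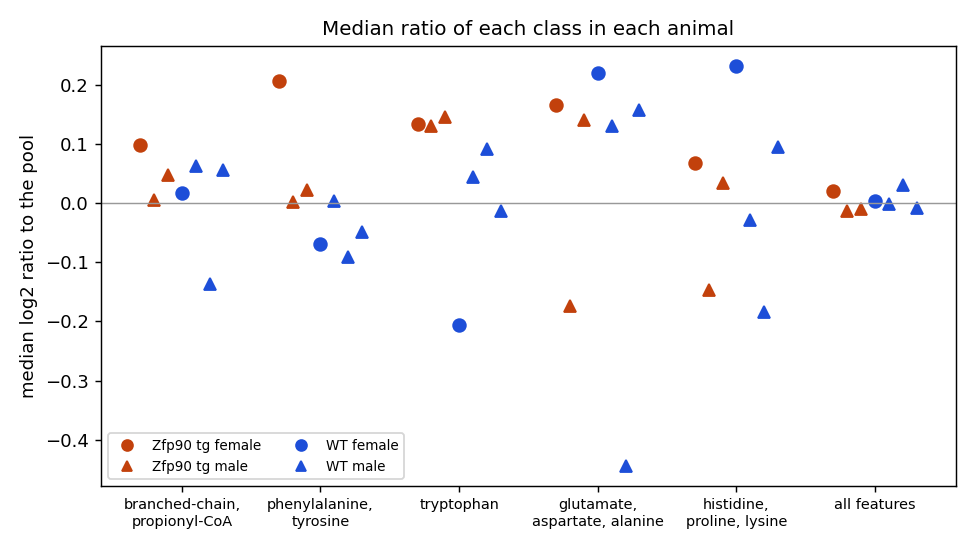
Median log2 ratio to the WT liver pool (y axis) over the measured members of each class and over all features, 1 point per animal, with Zfp90 tg (red) left of WT (blue), circles for females and triangles for males. The tryptophan medians of the 3 Zfp90 tg animals lie at 0.13 to 0.15, and WT male 3 stands lowest in the glutamate, aspartate and alanine class at -0.44.

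The range of the WT animals exceeded the size of the genotype difference in all measured members but Gpt2, Bckdhb, Pcca and Hgd. A range of single animals and a difference of means are unlike measures. The 4 WT livers spanned more than 1 log2 unit in 5 of 33 members (6.02% of all features): Got1 (2.15), Hal (1.65), Tat (1.16), Mccc2 (1.11) and Gpt (1.01). In all 5 the lowest WT animal was male 3, and the lowest transgenic animal was male 1. In Got1, Hal, Tat and Gpt the highest WT animal was the female, and in Mccc2 it was male 4. Over all members, WT male 3 was the lowest of the 7 animals in 13 (39.4%, against 14.2% of all features), and the Zfp90 tg female was the highest in 13 (39.4%, against 20.9%).

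The count of members with a small p depended on single animals. Without WT male 3, 10 members had an unadjusted p under 0.05, against 15.9% of all features in that fit, and 0 were called. Bckdhb, Pcca, Afmid, Acmsd and Gpt2 were then on the higher side, and Hibadh, Aldh6a1, Glud1, Got1 and Got2 on the lower side. Without WT male 4 the count was 1, Gpt2, against 4.63% of all features. Without WT male 2 it was 3 (Bckdhb, Afmid and Gpt2; 4.42%), and without Zfp90 tg male 1 it was 3 (Pcca, Gpt2 and Uroc1; 3.62%). Gpt2 was among them in every one of the 15 alternative fits.

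Between the sexes 0 members were called, against 0.351% of all features (78). The differences are females minus males from the same model, with 2 females and 5 males. On the higher side 3 members had an unadjusted p under 0.05 (3.65% of features): Uroc1 (0.51 ± 0.12 SE; limma, adjusted p = 0.197), Got1 (1.19 ± 0.42 SE, 0.428) and Pcca (0.33 ± 0.13 SE, 0.502). Kmo was on the lower side (5.57% of features), at -0.39 ± 0.12 SE (0.358). Both females lay above all males in 3 members, Uroc1, Hibch and Gstz1 (6.04% of features), and below all males in Kmo alone (6.83%). Got1 overlapped between the sexes, since WT male 4, at 0.44, lay above the Zfp90 tg female, at 0.27.

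Males and females were also compared for the size of the genotype difference. In the males alone (2 Zfp90 tg against 3 WT) 0 members were called (0.0315% of features, 7), and 1 member, Gpt2, had an unadjusted p under 0.05 (6.96%). Its difference was 0.79 in the males and 0.49 between the 2 females. The other 4 members with a small p over all animals had the same sign in both sexes and were larger between the females: Bckdhb (0.25 in males and 0.68 between females), Pcca (0.17 and 0.64), Afmid (0.23 and 0.60) and Aldh6a1 (-0.35 and -0.62). Tat differed most between the females (-1.01), against -0.14 in the males. In the males alone the differences of Kmo (0.04), Hgd (0.08), Fah (0.10), Uroc1 (0.10), Acmsd (0.18), Got2 (-0.07) and Hal (-0.04) were also closer to 0 than over all animals by more than 1.5 times. That of Gpt was larger (0.29), and Got1 (-0.37) and Aldh4a1 (-0.08) lay within that margin. Males and females had opposite signs in 10 of 33 members (50% of features). The interaction of genotype and sex was called in 0 members (0.072% of features), and 0 had an unadjusted p under 0.05 (8.42%). With 1 female per genotype its spread came from the males, and the comparison between females rests on the array whose Zfp90 ratio went against its label.

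**Figure D4:**
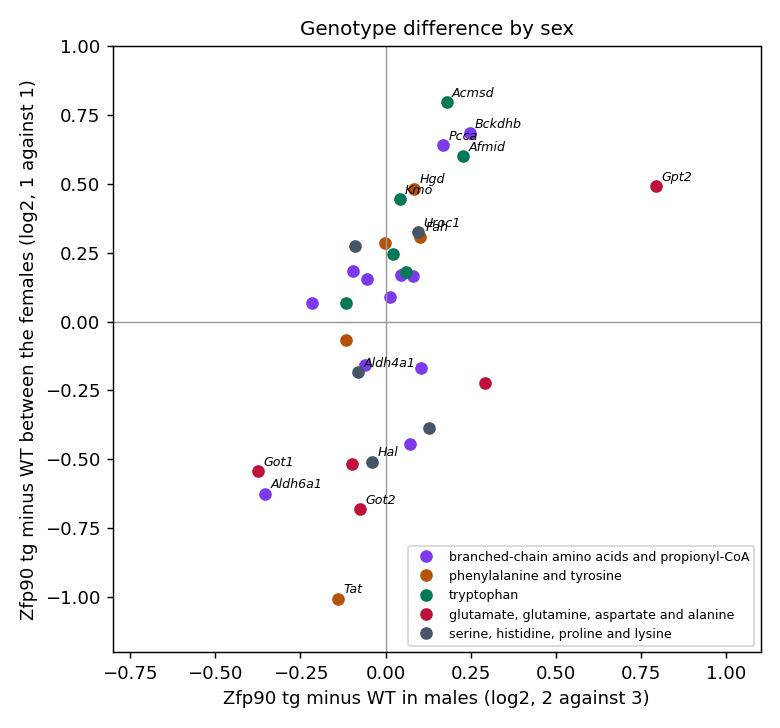
Zfp90 tg minus WT of each measured member in the males (x axis, log2, 2 against 3 animals) and between the females (y axis, log2, 1 against 1), coloured by class. Members chosen by the rule for values of each animal are named, and Gpt, added later, is not. Gpt2 lies furthest right at 0.79, and Tat lowest at -1.01.

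Other genes of the same pathways were read from a second list, of which 42 were measured. None was called; 8 had an unadjusted p under 0.05 on the higher side and 3 on the lower side (26.2% of the list, against 6.91% of all features), and the median difference was 0.02. By class the positive differences and medians were 8 of 13 and 0.03 for branched-chain genes, 3 of 4 and 0.34 for phenylalanine and tyrosine, and 3 of 8 and -0.10 for tryptophan. They were 2 of 5 and -0.07 for glutamate, aspartate and alanine, and 6 of 12 and -0.01 for serine, histidine, proline and lysine. The smallest p was that of Kyat3, a kynurenine aminotransferase of a side branch of tryptophan breakdown. It read -0.34, -0.80 and -1.62 in Zfp90 tg livers, against 0.39, -0.03, -0.22 and -0.06 in WT livers, so the genotypes did not overlap. The difference was -1.00 ± 0.20 SE (0.5-fold; limma, adjusted p = 0.508). Aadat, another aminotransferase of that branch, read -0.33, -0.29 and -0.47 in Zfp90 tg and -0.11, 0.08, 0.15 and -0.01 in WT livers (-0.38 ± 0.10 SE, 0.653). Bcat1, the cytosolic branched-chain aminotransferase, read 0.40, 0.62 and 0.41 in Zfp90 tg and 0.03, 0.16, 0.17 and -0.11 in WT livers (0.42 ± 0.11 SE, 0.653). In both genes the 3 transgenic animals lay on 1 side of all 4 WT animals. Over the list they lay above all WT animals in 5 genes and below in 3 (19.0% of the list, against 6.01% of all features). Kyat3, Aadat and Bcat1 were picked by their smallest p in the same values, so their separation adds no support.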

How the data were processed

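Liver RNA of 3 Zfp90 tg and 4 WT mice was read on 2-colour arrays, with the pool in Cy3 and the animal in Cy5, per the labels, and with dye swaps, per the series' design text. The deposited values are log10 ratios of 23574 probes, with a single value for each animal. The sources used here do not state the authors' background correction, normalization, treatment of swaps, direction, log base or centring. The values end at -2 and 2, as log10 ratios limited at 100-fold would, the direction was read from Kdm5d, and array medians ran from -0.0042 to 0.0093. Centring stays unknown, and signal over background was not used here. The number of arrays limits the precision.

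Ratios were multiplied by 3.32 to give log2, and probes of 1 symbol were averaged (1 member, Mccc1, had several). Probes with no single symbol stood alone. limma 3.58.1 in R 4.3.3 (lmFit, eBayes) was fitted to all 22218 features with genotype and sex, and with their interaction in a second model, adjusted over all features. The fit was tested on simulated data. The p-values set each difference against the spread between these animals, moderated over all features. They take the animals as independent, and nothing states separate litters or cages.

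Members, classes, the second pathway list and marker lists were chosen with earlier results of these data known. Values of each animal are given for the 3 members of each class with the smallest genotype p, for members called or not overlapping, for the 3 with the smallest sex p and for the 3 other pathway genes with the smallest p. Gpt, Mcee and Mmut were added after their values were seen. Alternatives were centring, quantile normalization, no sex term, males alone, robust eBayes, medians over probes, named genes alone, features with above-median ratios, and leaving out each animal. Above-median ratios were judged by the mean size of a feature's ratios, regardless of sign. Counting Mut as Mmut was added after the data were seen.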

Additional observations from a re-analysis of the deposited data

Results flagged for a closer look

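In a group of 4 animals, 1 value was taken to stand apart where its gap to the nearest other, divided by the range, exceeded Dixon's 95% critical value. Chance marks about 1 in 20 groups, and 42 sets of WT values were examined. WT male 3 stood apart below the others in Hibadh (gap over range 0.908), Got2 (0.898) and the median of the glutamate, aspartate and alanine class (0.863). The WT female stood apart above the WT males in Uroc1 (0.927). Their causes were not tested.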

How the results depend on the processing

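No member was called under any of the 15 alternatives in limma. The 15 members chosen by the rule for values of each animal (Gpt, added later, is not among them) kept their direction in all but 2 of 222 fits. Both were of Hal (0.033 without WT male 4 and 0.0129 without Zfp90 tg male 1, in a range from -0.47 to 0.033 when 1 animal was left out). Many of the 222 could not change a direction. Robust eBayes, named genes alone and features with above-median ratios leave a member's difference as it is. So do medians over probes, since each of these members had 1 probe. Features called between genotypes, 0 in the model with sex, numbered 7 in males alone and 4 among features with above-median ratios, and 0 to 7 when 1 animal was left out. Members at an unadjusted p under 0.05 numbered 3 without the sex term, 1 in males alone and 1 among features with above-median ratios, which held 21 members and 10 positive differences, and 1 to 10 when 1 animal was left out. The phenylalanine and tyrosine median was -0.00155 in males alone, and -0.00155 to 0.16 when 1 animal was left out. Among features with above-median ratios only Tat of that class remained, so the value there, -0.39, is that of Tat alone. Features called between the sexes numbered 47 after quantile normalization, 162 among features with above-median ratios, and 36 to 254 when 1 animal was left out, the highest without the Zfp90 tg female. The median of all members was -0.0147 among features with above-median ratios, and -0.04 to 0.09 when 1 animal was left out. With Mmut counted, the branched-chain median was 0.01 and that of all members 0.02. No paired analysis was possible because the labels name no pairs, and the genotypes share only 1 replicate number within a sex. Leaving out either female gives the fit of the males alone, since the other female then sets the sex term. The cause of the other changes was not tested.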

Other observations

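Mccc1, a subunit of methylcrotonyl-CoA carboxylase, was the member read by several probes, and they disagreed. In the Zfp90 tg female the 3 probes read 0.16, 0.54 and -0.31, against 0.08, 0.07 and -0.02 in the WT female. The averaged value therefore joins probes whose differences between these animals had opposite signs.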
